A study of Mus musculus with 12 samples.

Results

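Of 25697 probes on an Illumina mouse bead array, 294 were strongly induced when BV2 microglia were activated. Of those 294, 68 were E29-resistant, meaning that the compound E29 did not lower them past a set limit. A probe was strongly induced if the median log2 intensity of the 11 activated arrays was at least 2 above that of the non-activated control, which is 4-fold. It was E29-resistant if its intensity in E29 was no more than 1.5-fold below that in the activated control. No upper limit was set, so probes that were higher in E29 also count. The probes were thus chosen by their measured intensities, and both steps used the authors' processed intensities, with values under 50 raised to 50. The 68 probes made up 23.1% of the strongly induced probes. Of these, 65 carried a gene symbol and stood for 48 of 16593 named genes, and 3 were unnamed in the annotation used here.

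BV2 is an immortalised mouse microglial line, and microglia are the resident macrophages of the brain. The groups, with 1 array each, were 4 h cultures given 1 of 10 compounds after activation (E4 or E5, E14 or E18, E19 or E20, E21 or E23, and E29 or E33), an activated control without compound, and a non-activated control with neither stimulus nor compound. Activation was with 1 µg/ml lipopolysaccharide (LPS), a bacterial cell wall component, and 10 ng/ml interferon-γ (IFN-γ) in every group except the non-activated control. The sources used here do not say what the compounds are, at which dose they were used or in which vehicle. All groups come from 1 cell line and no group has a replicate, so no difference below carries a p-value or an error between cultures, and precision is limited by having 12 arrays in all.

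LPS is sensed by Toll-like receptor 4, which activates NF-κB and MAP kinases and, through interferon regulatory factors, interferon-β. IFN-γ signals through JAK kinases, and both interferon routes drive genes with interferon-stimulated response elements (ISRE) or gamma-activated sites (GAS). Together these pathways raise chemokines, cytokines, costimulatory receptors, guanylate-binding proteins and antigen presentation genes in macrophages and microglia.

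Each array detected 8538 to 9493 probes at a detection p-value under 0.01. Of the 10 microglia and macrophage marker genes with a probe, 8 were detected on all 12 arrays, while Cx3cr1 was detected on 2 arrays and Itgam on 1. Their summed intensity was 26926 to 35366 in the activated groups and 32957 in the non-activated control. Of 21 marker genes of astrocytes, neurons, oligodendrocytes, T cells, B cells, endothelial cells and fibroblasts, only Mog was detected, on 2 arrays, and the sum over their 33 probes was 360.3 to 628 in the activated groups and 376 in the non-activated control.

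Promoter windows of 4 of the genes are printed as a description. Gbp2 and Ifit3 carry ISRE matches, and Gbp2, Cxcl2 and Ifnb1 carry NF-κB matches. Whether these motifs bear on the intensities was not tested. The windows run from 250 bases before to 50 bases after the RefSeq transcript start on GRCm38.p6, 5′ to 3′ on the gene's strand. Capitals mark matches, on either strand, to the NF-κB consensus, the ISRE core GAAANNGAAA or the GAS core TTCNNNGAA. In Gbp2 (chr3:142620413-142620712, plus strand), the first match is of the ISRE type and the second of the NF-κB type. Both matches in Ifit3 (chr19:34583279-34583578, plus strand) are of the ISRE type. In Cxcl2 (chr5:90903649-90903948, plus strand) overlapping matches on the 2 strands form 1 run of capitals, and Ifnb1 (chr4:88522745-88523044, minus strand) has 1 NF-κB match.
Gbp2: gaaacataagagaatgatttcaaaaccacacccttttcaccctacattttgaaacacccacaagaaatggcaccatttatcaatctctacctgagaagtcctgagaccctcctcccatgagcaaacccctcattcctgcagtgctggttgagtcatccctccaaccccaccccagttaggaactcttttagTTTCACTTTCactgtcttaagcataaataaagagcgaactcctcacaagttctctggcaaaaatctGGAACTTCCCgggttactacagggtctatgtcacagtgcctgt
Ifit3: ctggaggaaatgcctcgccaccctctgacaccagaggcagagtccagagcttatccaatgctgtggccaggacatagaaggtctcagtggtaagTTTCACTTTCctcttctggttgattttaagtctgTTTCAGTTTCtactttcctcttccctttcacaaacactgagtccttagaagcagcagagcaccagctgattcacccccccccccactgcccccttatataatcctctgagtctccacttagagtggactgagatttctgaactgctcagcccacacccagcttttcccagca
Cxcl2: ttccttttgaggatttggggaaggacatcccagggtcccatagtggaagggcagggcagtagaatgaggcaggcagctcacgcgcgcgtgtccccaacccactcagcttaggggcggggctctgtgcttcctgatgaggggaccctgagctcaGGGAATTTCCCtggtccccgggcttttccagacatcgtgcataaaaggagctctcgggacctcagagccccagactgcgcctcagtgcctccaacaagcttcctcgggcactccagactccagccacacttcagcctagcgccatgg
Ifnb1: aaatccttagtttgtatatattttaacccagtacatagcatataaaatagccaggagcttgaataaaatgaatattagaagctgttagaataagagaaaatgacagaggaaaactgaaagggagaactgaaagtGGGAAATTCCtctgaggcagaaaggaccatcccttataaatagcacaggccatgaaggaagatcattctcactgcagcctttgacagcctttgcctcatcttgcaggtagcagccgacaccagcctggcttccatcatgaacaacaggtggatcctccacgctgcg

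Windows could be matched by symbol for 36 of the 48 genes. The NF-κB consensus matched in 8 of 36 genes of the E29-resistant probes (22.2%), 22 of 128 genes with only other strongly induced probes (17.2%) and 9.55% of all 27025 genes with a window. The ISRE core matched in 5 of 36 genes of the E29-resistant probes (13.9%), 30 of 128 genes with only other strongly induced probes (23.4%) and 3.99% of all 27025 genes with a window. Its 5 genes among the E29-resistant ones were Gbp2, Gbp7, Ifit3, Irgm1 and Srgn. The GAS core matched in 6 of 36 genes of the E29-resistant probes (16.7%), 24 of 128 genes with only other strongly induced probes (18.8%) and 9.55% of all 27025 genes with a window. Such a match describes the letters only.

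Induction was of like size in the members and in the other 226 strongly induced probes. The median induction was 3.002 on the log2 scale in the members (range 2.02 to 8.09) and 2.967 in the other probes (2.01 to 8.23). In all, 11072 probes exceeded 50 on at least 1 array, and the 294 were 2.66% of them. Members made up 68 of 294 probes induced by at least 2, 34 of 146 (23.3%) induced by at least 3, 13 of 70 (18.6%) induced by at least 4 and 9 of 39 (23.1%) induced by at least 5. Intensity in the activated control had a median of 1101 in the members and 1276 in the other probes. In the non-activated control, 21 of the 68 members (30.9%) and 78 of the 226 other probes (34.5%) were under 50, close to the lowest intensity of a detected probe on that array (48.4). Folds for these are lower bounds and are given as "at least". All 68 members were detected on all 11 activated arrays, and so were 278 of all 294 strongly induced probes, members included. The rule makes detection likely for members, because it left out probes that E29 lowered further. A lower value can come from less RNA per cell or from fewer cells that express the gene, which cannot be told apart here. The size of the class depends on the floor: it held 107 of 461 strongly induced probes with values under 10 raised to 10, and 43 probes without background correction.

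E29 itself chose the members, so its values are a description. Over all 10166 probes above 50 in E29 or the activated control, 82.0% passed the E29 step, while 23.1% of the strongly induced probes did. The E29 difference from the activated control ran from -0.55 to 1.13 over the members, with a median of -0.077 and an interquartile range across probes of -0.27 to 0.18. For the other 226 the median was -1.52 and the range -4.76 to -0.60. E29 was above the activated control for 26 members and below it for 42, and below it for 4400 of all 10166 probes. It was 1.5-fold or more above it for 5 members (7.35%), against 18.1% of all. Set against the other 10 activated arrays, it lay within their range for 38 members, above all 10 for 16 and below all 10 for 14. For the other 226 probes, which the rule placed below the activated control, these were 17, 0 and 209. Such positions were not counted over all probes, so the 38, 16 and 14 have no background. A 1.5-fold count with a background took the median of the remaining 10 activated arrays as its reference. By that count E29 was higher for 11 members and lower for 1, while over all 10166 probes it was higher for 1684 and lower for 1711. The rule itself keeps the members' lower count small. In the median, E29 kept 97.7% of the activated control's log2 induction in the members and 50.2% in the other probes.

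**Figure D1:**
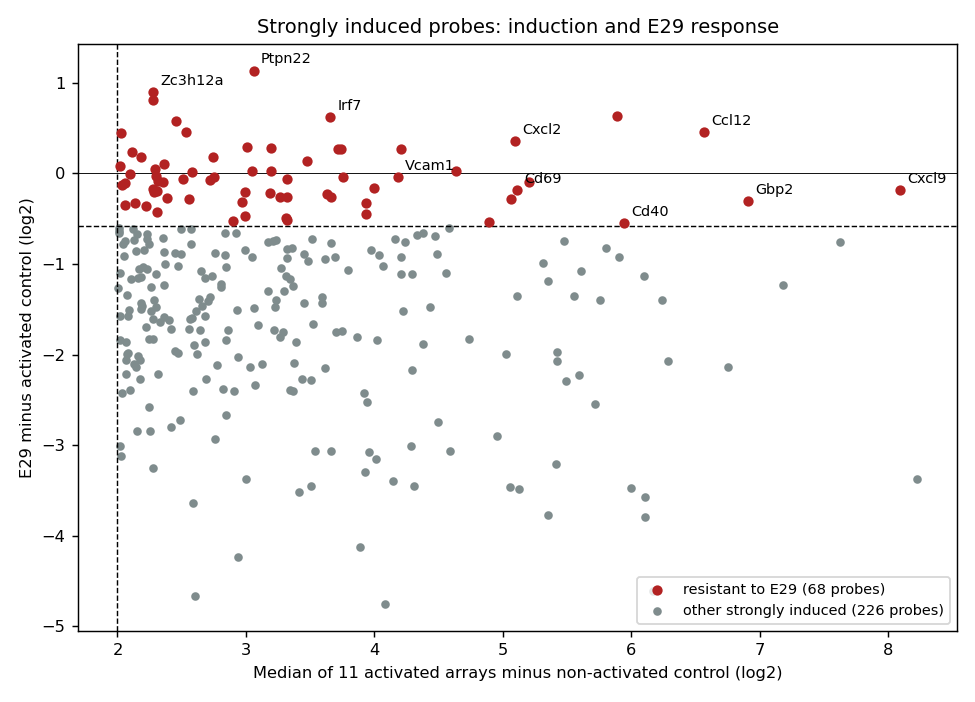
Each point is 1 of the 294 strongly induced probes, with the induction (median of 11 activated arrays minus non-activated control, log2) on the x axis and E29 minus activated control (log2) on the y axis. Red points are the 68 E29-resistant probes, grey points the other 226, and dashed lines the 4-fold and 1.5-fold limits that chose them. Members occur at all levels of induction up to 8.09 for Cxcl9.

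The E29 limit had probes close to it on both sides. Just inside it lay Cd40 (ILMN_2502136, -0.55), Irgm1 (-0.53) and Jak2 (ILMN_1245579, -0.52), and just outside it Tor1aip2 (-0.60), Irgm2 (-0.61) and a second Nfkbie probe (-0.61). At the induction limit the innermost were probes of Casp4 (2.02), Srgn (2.03) and H2-Q8 (2.04). The nearest outside that limit were Relb (1.996), Trim36 (1.99) and Nrap (1.98).

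Among secreted signals, the E29-resistant genes were the chemokines Cxcl9, Ccl12, Ccl2 and Cxcl2 and the cytokines Ifnb1 and Il15. Over all 209 strongly induced genes, 48 (22.97%) had an E29-resistant probe, and the rule used this contrast, so the counts of each list are given beside that share as a description. Of 23 chemokine genes in a list, all with probes, 10 were strongly induced. Of these 10, 4 had only E29-resistant probes and 6 had only other probes, namely Ccl4, Ccl5, Ccl7, Ccl8, Ccrl2 and Cxcl10. Of 8 strongly induced cytokine genes, Ifnb1 had only E29-resistant probes, Il15 had both kinds, and Il1a, Il1b, Il1rn, Il27, Il6 and Tnf had only other probes. The median E29 difference over the strongly induced probes was -1.09 for the chemokine list and -0.89 for the cytokine list, against -1.20 over all 294 strongly induced probes and 0.10 over all probes tested.

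Cxcl9, a chemokine for T cells that binds CXCR3, had the largest induction of all members, at least 273-fold (log2 8.09). A processed value of 10.0, the lowest in the file, marks a signal at the bottom of the scale. The intensity of Cxcl9 was 14620.3 in E4, 12689 in E5, 13136 in E14, 13134 in E18, 9039 in E19, 13982 in E20, 13178 in E21, 14204 in E23, 13642 in E29, 14963 in E33, against 15509 in the activated control and 10.0 in the non-activated control. E19 was the lowest of the activated arrays, and the other 10, E29 among them, lay between 12689 and 15509. Cxcl10, the other strongly induced CXCR3 ligand gene, was no member: its probe had 1524 in E29, against 15797 in the activated control and 28.9 in the non-activated control, a log2 difference of -3.37 from the activated control.

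Ccl12 and Ccl2 attract monocytes through CCR2. The brighter of the 2 Ccl12 probes (ILMN_2771766) had 5343 in E4, 3863 in E5, 4058 in E14, 4143 in E18, 4066 in E19, 4340.4 in E20, 5295 in E21, 5122 in E23, 7472 in E29, 4746 in E33, against 5432 in the activated control and 13.2 in the non-activated control. The induction was at least 94.9-fold. E29 was above every other array, and its log2 difference from the activated control was 0.46, while the second probe (ILMN_3161805) gave 0.63. Ccl2 had 4226 in E4, 1869 in E5, 2833 in E14, 3992 in E18, 1310.2 in E19, 1867 in E20, 4352 in E21, 4210.2 in E23, 4403 in E29, 6761 in E33, against 4321 in the activated control and 509 in the non-activated control. Its induction was 8.27-fold. The E29 value lay next to the activated control (log2 0.03), whereas E5, E19 and E20 were 2.31-, 3.30- and 2.31-fold below the activated control and E33 was 1.56-fold above it. In the annotation Ccl2 is adjacent to Ccl7, and Ccl12 to Ccl8. Neither neighbour was a member, with E29 differences of -1.06 for Ccl7 and -1.67 for Ccl8.

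Cxcl2, a neutrophil chemoattractant that binds CXCR2, had 1635 in E4, 1606 in E5, 1124 in E14, 1259.6 in E18, 1788 in E19, 2112 in E20, 1783 in E21, 1709 in E23, 2844 in E29, 508 in E33, against 2221 in the activated control and 10.0 in the non-activated control. The induction was at least 34.2-fold. E29 was the highest array and E33 the lowest activated one, 4.37-fold under the activated control (log2 -2.13) and -1.78 from the median of the other 10 activated arrays. Ifnb1, which encodes interferon-β, had 742 in E4, 668 in E5, 303 in E14, 711 in E18, 337 in E19, 371 in E20, 753 in E21, 588 in E23, 1291 in E29, 263 in E33, against 1071 in the activated control and 10.0 in the non-activated control. Its induction was at least 13.4-fold. E29 was again the highest, and E33, E14, E19 and E20 formed the low end, with log2 differences from the activated control of -2.03, -1.82, -1.67 and -1.53. The activated control was itself the second highest array for Ifnb1. Against the median of the remaining 10 activated arrays the differences were -1.39 for E33, -1.19 for E14, -1.03 for E19 and -0.89 for E20.

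Il15, a cytokine that sustains natural killer and memory T cells, was measured by 3 probes. The 2 E29-resistant ones had 1589.7 and 2624 in E29, against 1695 and 3185 in the activated control (log2 -0.09 and -0.28). The third had 608 in E29, against 1128 in the activated control (log2 -0.89).

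The members that encode surface receptors and adhesion molecules were Cd40, Cd69, Fas, Vcam1, Icam1 and Plaur, which come from 3 of the lists. Cd69, an early activation lectin, had 2544 in E4, 899 in E5, 1242 in E14, 1645 in E18, 814 in E19, 1269 in E20, 1959.8 in E21, 1856 in E23, 2279 in E29, 1724 in E33, against 2593 in the activated control and 10.0 in the non-activated control. Vcam1, an adhesion molecule that binds integrins on leukocytes, had 1369 in E4, 644 in E5, 728 in E14, 1045 in E18, 392 in E19, 834 in E20, 995 in E21, 908 in E23, 1479 in E29, 879 in E33, against 1518 in the activated control and 10.0 in the non-activated control. Induction was at least 34.5-fold for Cd69 and at least 18.2-fold for Vcam1. For both genes E29 and E4 stood next to the activated control, and E19 and E5 were the 2 lowest activated arrays. In E19 the log2 difference from the activated control was -1.67 for Cd69 and -1.95 for Vcam1, and in E5 it was -1.53 and -1.24. The activated control was the highest of the 11 activated arrays for both, and against the median of the other 10 the E19 differences were -1.14 and -1.28 and those of E5 -0.99 and -0.56.

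Fas, a death receptor, had 2 E29-resistant probes, and for both of them E19 and E5 were again the 2 lowest activated arrays. They had 567 and 247 in E19, and 1294 and 632 in E29, against 1076 and 619 in the activated control and 33.6 and 10.0 in the non-activated control. Icam1, which binds leukocyte integrins, stayed between 6170.2 (E29) and 8950.3 (E33) on the activated arrays, against 771 in the non-activated control. Plaur, the urokinase receptor, lay between 1192 (E5) and 1510.0 (E21), against 236 in the non-activated control. Cd40, the costimulatory receptor for CD40 ligand, was the member nearest the limit, with 5911 in E29, against 8650.3 in the activated control and 125 in the non-activated control. Its 3 other probes were all strongly induced and all outside the limit, with E29 differences of -0.75, -0.92 and -2.10.

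Interferon-stimulated genes were covered by a pair of lists. In a list of antiviral interferon-stimulated genes, 53 had probes and 32 were strongly induced, of which 3 had E29-resistant probes (Ifit3, Irf7 and Ifi35) and 29 had only other probes. The median E29 difference over the list's strongly induced probes was -1.29, against -1.20 over all 294. In a list of guanylate-binding proteins and immunity-related GTPases, which act against intracellular pathogens, 9 genes were strongly induced. Among them Gbp7 had only E29-resistant probes, Gbp2 and Irgm1 had both kinds, and Gbp3, Gbp5, Ifi47, Igtp, Irgm2 and Tgtp1 had only other probes. The median E29 difference over that list's strongly induced probes was -1.07.

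Ifit3, an interferon-induced antiviral protein, had 3 probes on the array and all were members. The brightest (ILMN_2944666) had 3205 in E4, 1441 in E5, 2719 in E14, 2499.9 in E18, 2712 in E19, 2169 in E20, 2881 in E21, 2461 in E23, 1648 in E29, 2433 in E33, against 2059 in the activated control and 161 in the non-activated control. Among the activated arrays E4 was the highest and E5 the lowest, with E29 the next lowest, and the activated control came after these. The E29 differences of the 3 probes were -0.32, -0.04 and 0.27, and those of E4 0.64, 0.40 and 0.85. The neighbouring gene Ifit2 was no member, with E29 differences of -2.23 and -1.98 at its 2 strongly induced probes.

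Irf7, a transcription factor for type I interferon genes, had 1072 in E29, against 698 in the activated control and 38.3 in the non-activated control. The other 9 compounds lay between 478 (E4) and 680.5 (E21), so E29 was above all other arrays (log2 0.62 against the activated control). Ifi35, another interferon-induced protein, had 687 in E29, against 794 in the activated control and 162 in the non-activated control.

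Gbp2 had one of the brightest probes among the members. Its member probe (ILMN_3122961) had 15509 in E4, 16046 in E5, 15776 in E14, 15652 in E18, 16985 in E19, 15061 in E20, 16307 in E21, 16012 in E23, 13331 in E29, 16131 in E33, against 16471 in the activated control and 133 in the non-activated control. The 10 activated arrays other than E29 spanned 0.17 on the log2 scale, the smallest range of any member, and E29 lay below all of them. The highest intensity of any probe was 16985 to 19352 per array, so this probe was near the top of the scale. The 2 dimmer Gbp2 probes were not members. They had 1694 and 345 in E29, against 3706 and 723 in the activated control, with log2 differences of -1.13 and -1.07. Whether the upper end of the scale has a part in this gap was not tested. Intensities in the activated control exceeded 10000 for 2 members, Cxcl9 and this Gbp2 probe, and for 11 of the other strongly induced probes.

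Both Gbp7 probes on the array were members. They had 1244 and 418 in E29, against 1219 and 499.6 in the activated control and 25.4 and 10.0 in the non-activated control. Both of its neighbours in the annotation, Gbp5 and Gbp3, were strongly induced and outside the class, with E29 differences of -2.55 for Gbp5 and -1.40 and -1.40 for the 2 Gbp3 probes. The member probe of Irgm1 had 5112 in E29, against 7389.9 in the activated control and 256 in the non-activated control, and E29 was its lowest activated array. A brighter Irgm1 probe, induced by 0.91 on the log2 scale and so under the induction limit, had 11446 in E29. It had 14112 in the activated control and 7463 in the non-activated control. Among the 19 pairs of adjacent strongly induced genes in the annotation, 7 joined a gene with an E29-resistant probe to one without and 0 joined 2 genes with E29-resistant probes. Over all 209 strongly induced genes, 48 (22.97%) had such a probe, and whether the pair counts depart from that share was not tested.

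**Figure D2:**
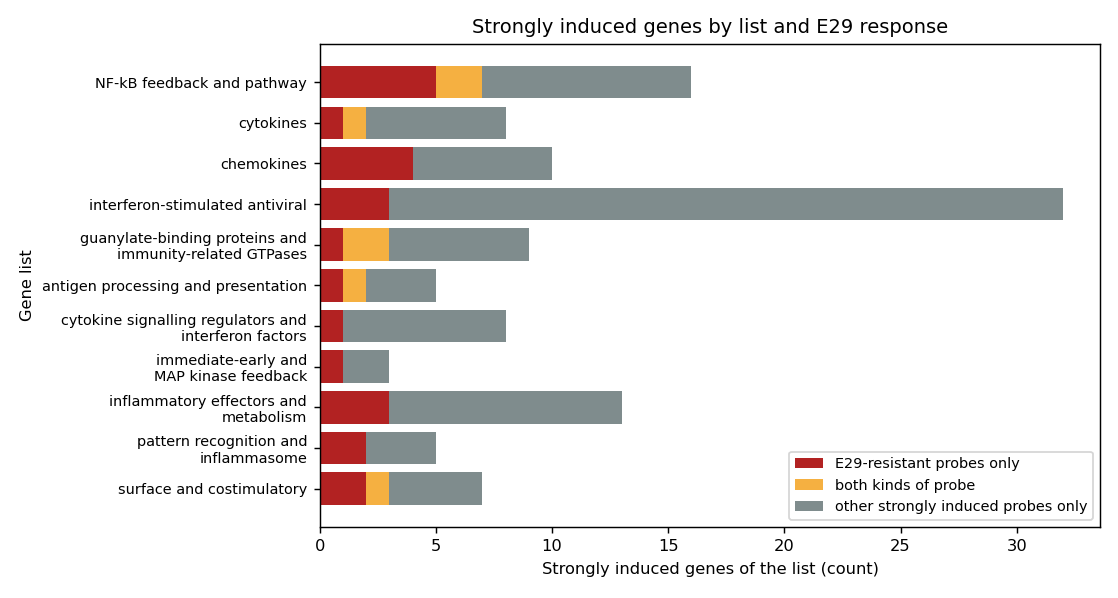
Bars count the strongly induced genes of each gene list that had any, split into genes with only E29-resistant probes (red), with both kinds of probe (yellow) and with only other strongly induced probes (grey). The antiviral list holds 32 such genes with 3 in red, the chemokine list 10 with 4 in red, and the NF-κB list 16 with 5 in red and 2 in yellow.

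Members that encode regulators of inflammatory signalling are described next. In the NF-κB list, 16 genes were strongly induced, of which 5 had only E29-resistant probes (Icam1, Vcam1, Nfkb2, Nfkbiz and Zc3h12a), 2 had both kinds (Cd40 and Nfkbie) and 9 had only other probes, among them Nfkbia, Tnfaip3 and Rel. The median E29 difference over the list's strongly induced probes was -1.25. Zc3h12a, an RNase that degrades inflammatory mRNAs, had 454 in E4, 374 in E5, 333 in E14, 423 in E18, 355 in E19, 358 in E20, 493 in E21, 446 in E23, 778 in E29, 571 in E33, against 419 in the activated control and 87.2 in the non-activated control. E29 was the highest array, 1.86-fold above the activated control, and E33 the next. A second Zc3h12a probe, under the induction limit, had 208 in E29, against 103 in the activated control.

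Ptpn22, a protein tyrosine phosphatase of immune cells, had the largest E29 difference of the members. Its intensity was 1223 in E4, 872 in E5, 1003 in E14, 1052 in E18, 1099.6 in E19, 1066 in E20, 1447 in E21, 1424 in E23, 1637 in E29, 672 in E33, against 745 in the activated control and 128 in the non-activated control. E29 was 2.20-fold above the activated control, but the activated control was the second lowest activated array and E21 and E23 were also close to E29. Against the median of the remaining 10 activated arrays the E29 difference was 0.63. Stk40, a serine/threonine kinase, came after Zc3h12a in this order, with 448 in E29, against 256 in the activated control.

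Among the inhibitors and subunits of NF-κB, Nfkbie (IκBε) had 708 in E29, 322 in E19 and 1037 in E33, against 984 in the activated control and 79.0 in the non-activated control. E19 was the lowest activated array and E33 the highest. Nfkbiz (IκBζ) ran from 1459 (E5) to 2338 (E4), with 1485 in E29, against 2026 in the activated control. Nfkb2, a precursor of the p52 subunit, ran from 332 (E14) to 559 (E33), with 477 in E29, against 421 in the activated control.

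Jak2, a kinase of the IFN-γ receptor, had 2 member probes with 1346 and 625 in E29, against 1933 and 779 in the activated control, and E29 was the lowest activated array for both. Crem, a cAMP-responsive transcription factor gene, had 3 member probes whose lowest activated array was likewise E29 each time. For the brightest these intensities were 647 in E29, against 723 in the activated control and 35.8 in the non-activated control. Peli1, a ubiquitin ligase of Toll-like receptor signalling, had 1048 and 1495 in E29, against 1203 and 1498 in the activated control, with E19 highest and E33 lowest for both probes. Spsb1, an adaptor that targets inducible nitric oxide synthase for degradation, had 122 in E19 and 280.1 in E29, against 340.1 in the activated control. Dusp16, a MAP kinase phosphatase, had an E29 difference of -0.10. The member probe of Kdm6b, a histone demethylase gene, had 261 in E29, against 222 in the activated control (log2 0.23), and a brighter probe under the induction limit had 899 in E29, against 518 in the activated control (log2 0.80).

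Effector and metabolic genes among the members included Casp4, Gch1, Pnp and Nampt. Casp4, the mouse caspase that senses intracellular LPS, had 3 probes, all members, with E29 differences of 0.14, -0.06 and 0.08. Gch1, the first enzyme of tetrahydrobiopterin synthesis, had 3112 in E29, against 3745 in the activated control and 678 in the non-activated control. For this probe the 10 activated arrays other than E29 spanned 0.20 on the log2 scale. A dimmer Gch1 probe, under the induction limit, had 113 in E29, against 259 in the activated control (log2 -1.20), with a span of 0.76. Pnp, a purine salvage enzyme, had 6549 in E29, against 7612 in the activated control and 781 in the non-activated control, with a span of 0.24. Nampt, of NAD salvage, had 966 in E29, its lowest activated array, against 1300.0 in the activated control.

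The phosphoinositide phosphatase gene Mtmr14 had 4 probes and all were members, with E29 differences of -0.23, 0.28, -0.03 and -0.07. The antigen presentation genes among the members were Tapbp, a peptide-loading chaperone, and the class I gene H2-Q8, with E29 differences of -0.17 and -0.13. The H2-Q8 value is uncertain, because class I genes have near-identical sequences and a probe may bind several. A second Tapbp probe was strongly induced and outside the class (-1.15).

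The remaining named members were Marcksl1, Bcl2l11 (the pro-apoptotic protein Bim), the cell cycle genes Cdkn1a and Ccng2, Noct (nocturnin), Srgn (serglycin, a granule proteoglycan), Wfdc17, Car13 (a carbonic anhydrase), Katna1 (a microtubule-severing subunit), Agfg1 and Ccdc25. Their E29 differences ran from -0.36 (Ccdc25) to 0.58 (a Noct probe). Srgn had 2020.0 in E29, above all other arrays, against 1480.3 in the activated control. Ccng2 also had its highest value in E29, 694, against 566 in the activated control. The 3 unnamed probes had E29 differences of -0.52, -0.50 and 0.46.

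The other lists can be read beside the 22.97% of all strongly induced genes that had a member probe. The surface receptor list had 7 strongly induced genes, of which Cd40, Cd69 and Fas had member probes, and Cd274, Clec2d, Fcgr4 and Slamf7 had none. The effector list had 13 with 3 (Gch1, Marcksl1 and Plaur), and genes outside the class there included Nos2 and Ptgs2, the inducible nitric oxide synthase and cyclooxygenase genes. The list of cytokine signalling regulators had 8 with 1 (Jak2), and Irf1, Irf8 and Socs3 were outside. The antigen presentation list had 5 with 2, the pattern recognition list 5 with 2 (Casp4 and Peli1), and the immediate-early list 3 with 1 (Dusp16). Of the Nrf2 target list, 0 genes were strongly induced. Median E29 differences over the strongly induced probes were -0.78 for the surface list, -1.99 for the effectors, -2.98 for the cytokine signalling regulators, -0.93 for antigen presentation, -0.41 for pattern recognition and -1.98 for the immediate-early genes, against -1.20 over all 294 probes. In all, 30 of the 48 genes were in a list and 18 in none.

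**Figure D3:**
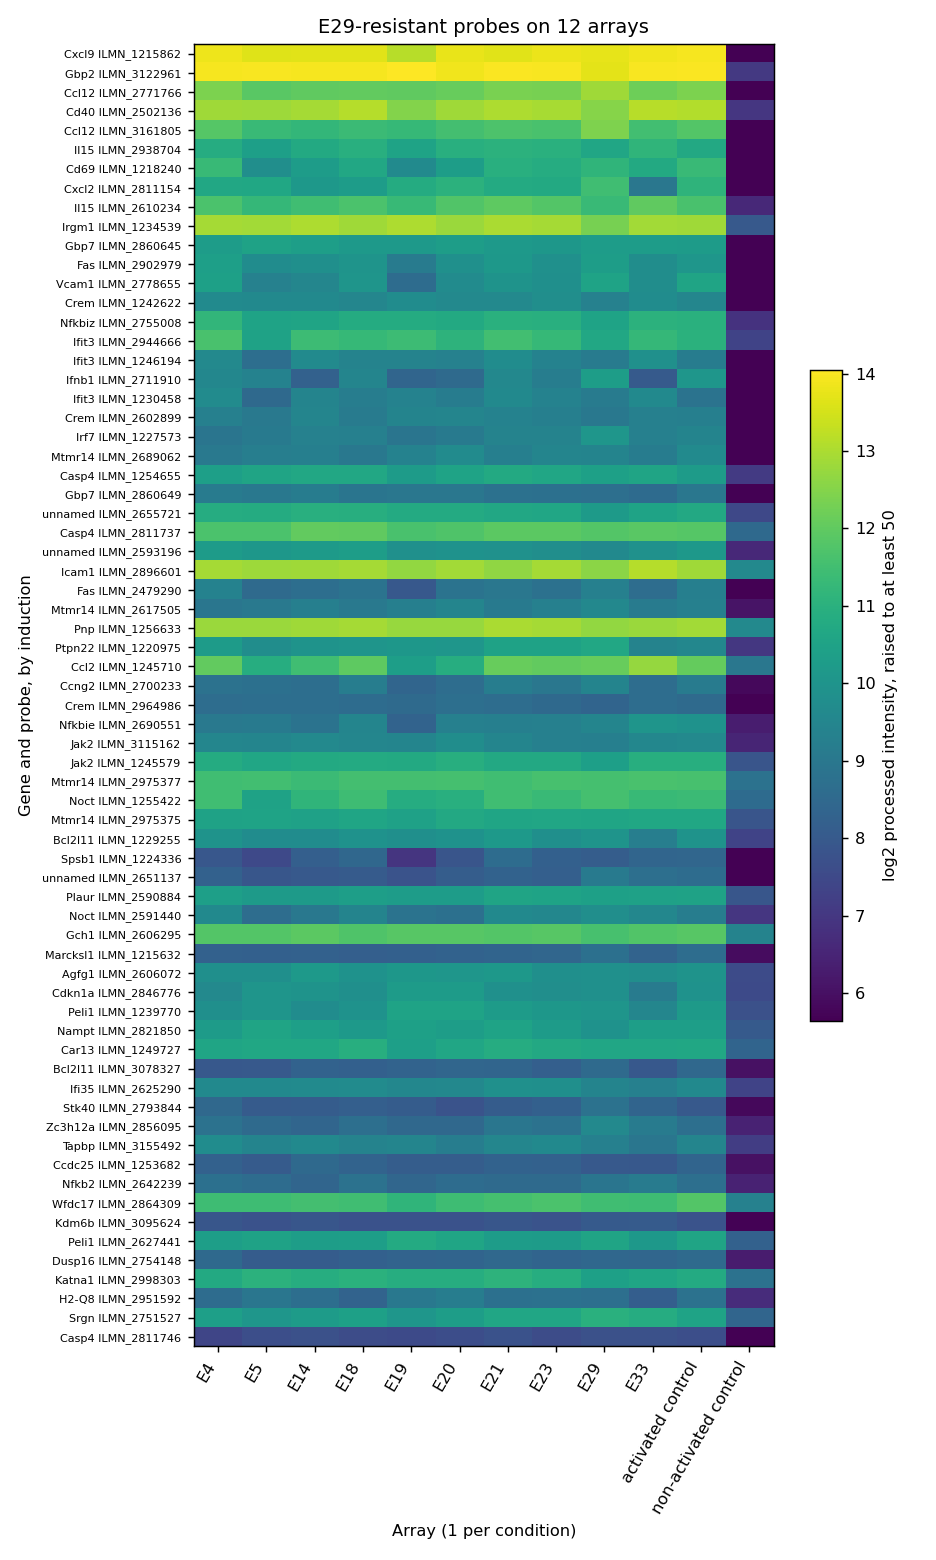
Shown by row are the 68 E29-resistant probes ordered by induction and columns the 12 arrays, 1 per condition. Colour is log2 processed intensity, with values under 50 raised to 50. The non-activated control in the last column is the lowest array of every row, which the 4-fold induction limit makes likely. E29, which the rule used, lies within the range of the other 10 activated arrays for 38 rows, a count that was not made over all probes.

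The other 9 compounds were not used to choose the members, apart from their place in the median of the 11 activated arrays and the activated control that all comparisons share. Over the 68 members, compound minus activated control had a median of -0.054 in E4, -0.252 in E5, -0.143 in E14, -0.059 in E18, -0.172 in E19, -0.068 in E20, -0.014 in E21, -0.057 in E23 and -0.055 in E33. Over the other 226 strongly induced probes these medians were -0.076 in E4, -0.169 in E5, -0.136 in E14, -0.102 in E18, -0.301 in E19, -0.144 in E20, -0.103 in E21, -0.138 in E23 and -0.202 in E33. The members' median was above that of the other probes by 0.15 in E33 and 0.13 in E19, and differed from it by -0.08 in E5. These gaps depend on the shared activated control. Against the median of the remaining 10 activated arrays they were 0.059 in E33, 0.077 in E19 and -0.082 in E5, and the gaps of E4, E18 and E20 turned from positive to negative, at -0.046, -0.078 and -0.031. Over all probes tested the 9 medians lay between 0.002 and 0.018. With 1 array per compound, none of these gaps could be tested.

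Counts at 1.5-fold can be read against their backgrounds. In E19, 12 members (17.6%) and 64 of the other probes (28.3%) lay 1.5-fold or more below the activated control, against 4.92% of all probes tested. In E33 these were 9 members (13.2%) and 47 other probes (20.8%), against 5.29% of all. In E5 they were 9 members (13.2%) and 41 other probes (18.1%), against 3.90% of all, and in E14 8 members (11.8%) and 26 other probes (11.5%), against 2.76% of all. E20 had 5 members and 30 other probes (7.35% and 13.3%, background 2.54%), and E18 had 4 members and 10 other probes (5.88% and 4.42%, background 2.42%). E23 had 3 members and 14 other probes (4.41% and 6.19%, background 2.42%), E4 had 2 members and 16 other probes (2.94% and 7.08%, background 2.47%), and E21 had 2 members and 12 other probes (2.94% and 5.31%, background 2.21%).

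Members 1.5-fold or more above the activated control were also counted. E4 had 3 (4.41%, other probes 0.44%, background 2.81%) and E33 had 3 (4.41%, other probes 0%, background 4.94%). E21 had 2 (2.94%, other probes 0.88%, background 1.50%). E14 and E23 had 1 each (1.47%), with 0.44% of the other probes in both and backgrounds of 1.50% and 1.34%. E5, E18, E19 and E20 had 0 each, at backgrounds of 3.47%, 1.67%, 4.33% and 1.76%. Shares of the other probes there were 0.88%, 1.33%, 1.33% and 0.44%. When each compound was compared with the median of the remaining 10 activated arrays, the members 1.5-fold or more below it numbered 10 in E19, 8 in E5, 6 in E33, 3 in E20, 2 in E14 and 0 in each of E4, E18, E21 and E23. The other 226 probes had 32 in E19, 15 in E5, 19 in E33, 8 in E20, 7 in E14, 2 in E4 and 1 in E23. Over all probes tested there were 161 of 9816 in E19, 114 of 9804 in E5 and 334 of 9818 in E33. For E20 and E14 these were 61 of 9765 and 31 of 9749.

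**Figure D4:**
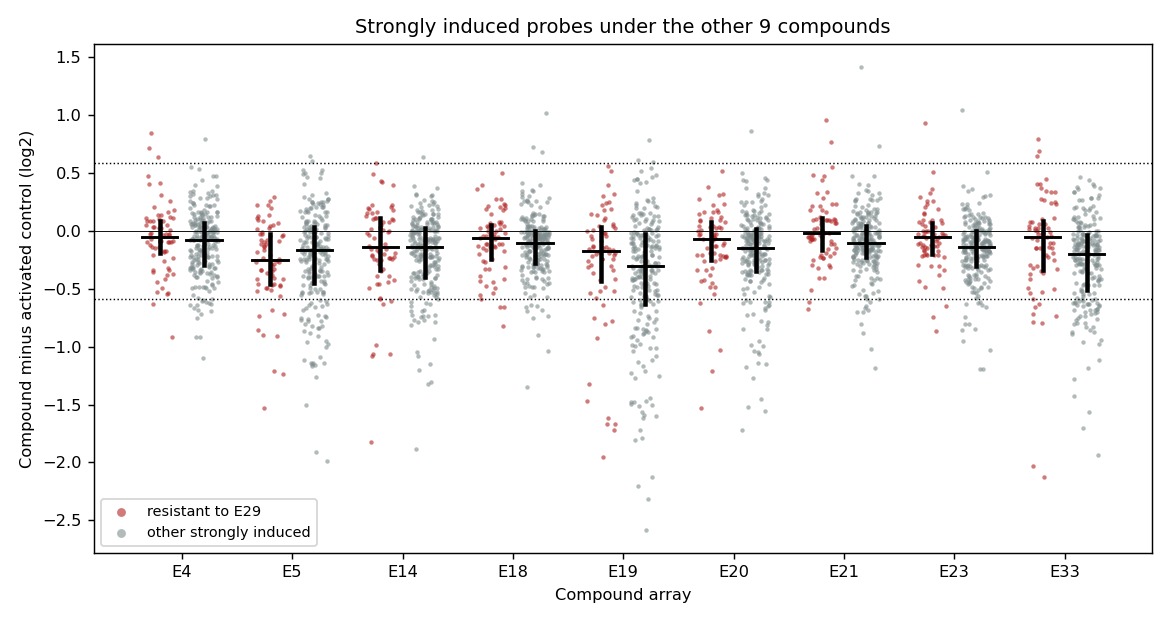
Points are strongly induced probes, with compound minus activated control (log2) on the y axis for each of 9 compounds. Red points on the left are the 68 E29-resistant probes and grey points on the right the other 226. Horizontal bars are medians, thick vertical bars interquartile ranges across probes, and dotted lines 1.5-fold. The 2 lowest red points of E33 are Cxcl2 and Ifnb1.

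The members varied among themselves in how far the other compounds moved them. The span of the 10 activated arrays other than E29 had a median of 0.63 on the log2 scale over the members and 0.68 over the other probes. It was under 1.5-fold for 33 of the 68 members, among them all member probes of Crem, Casp4 and Jak2, and at least 2-fold for 17. Of the other 226 probes, 85 had a span under 1.5-fold and 51 a span of at least 2-fold. Spans were not counted over all probes. The widest spans were those of Ccl2 (2.37), Cxcl2 (2.13), Ifnb1 (2.03), Vcam1 (1.95) and the Nfkbie probe and Spsb1 (1.69 each). E19 was the lowest of these 10 arrays for 18 members (26.5%), E33 for 15 (22.1%) and E5 for 12 (17.6%). Over the other 226 probes the same shares were 34.5%, 27.0% and 10.2%. The lowest array was not counted over all probes. Among the 9 compounds, E19, E33 and E5 also had the largest shares of all tested probes 1.5-fold or more below the activated control (4.92%, 5.29% and 3.90%). The activated control, which the rule used, was the lowest of the 10 for 0 members and the highest for 12 (17.6%). Over the other 226 probes it was the lowest for 3 (1.33%) and the highest for 63 (27.9%).

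Members at least 2-fold below the activated control, and also 1.5-fold or more below the median of the remaining 10 activated arrays, numbered 7 in E19, 2 in each of E5, E20 and E33, and 1 in E14. E19's were Vcam1, Ccl2, Cd69, Ifnb1, Nfkbie, Spsb1 and a Fas probe. Those of E5 were Cd69 and Ccl2, those of E20 Ifnb1 and Ccl2, those of E33 Cxcl2 and Ifnb1, and that of E14 Ifnb1. E4, E18, E21 and E23 had 0 members past both limits, and 0 members were past them upward in any of the 9. Counts past both limits were not made for the other 226 probes or over all probes, so those of the members have no background. At 2-fold below the activated control alone, E19 had 7 members, 29 of the other 226 probes and 140 of all 9816 tested. E5 had 3, 13 and 75 of 9804, and E14 had 4, 7 and 49 of 9749. E20 had 3, 11 and 59 of 9765, and E33 had 2, 7 and 77 of 9818.

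**Figure D5:**
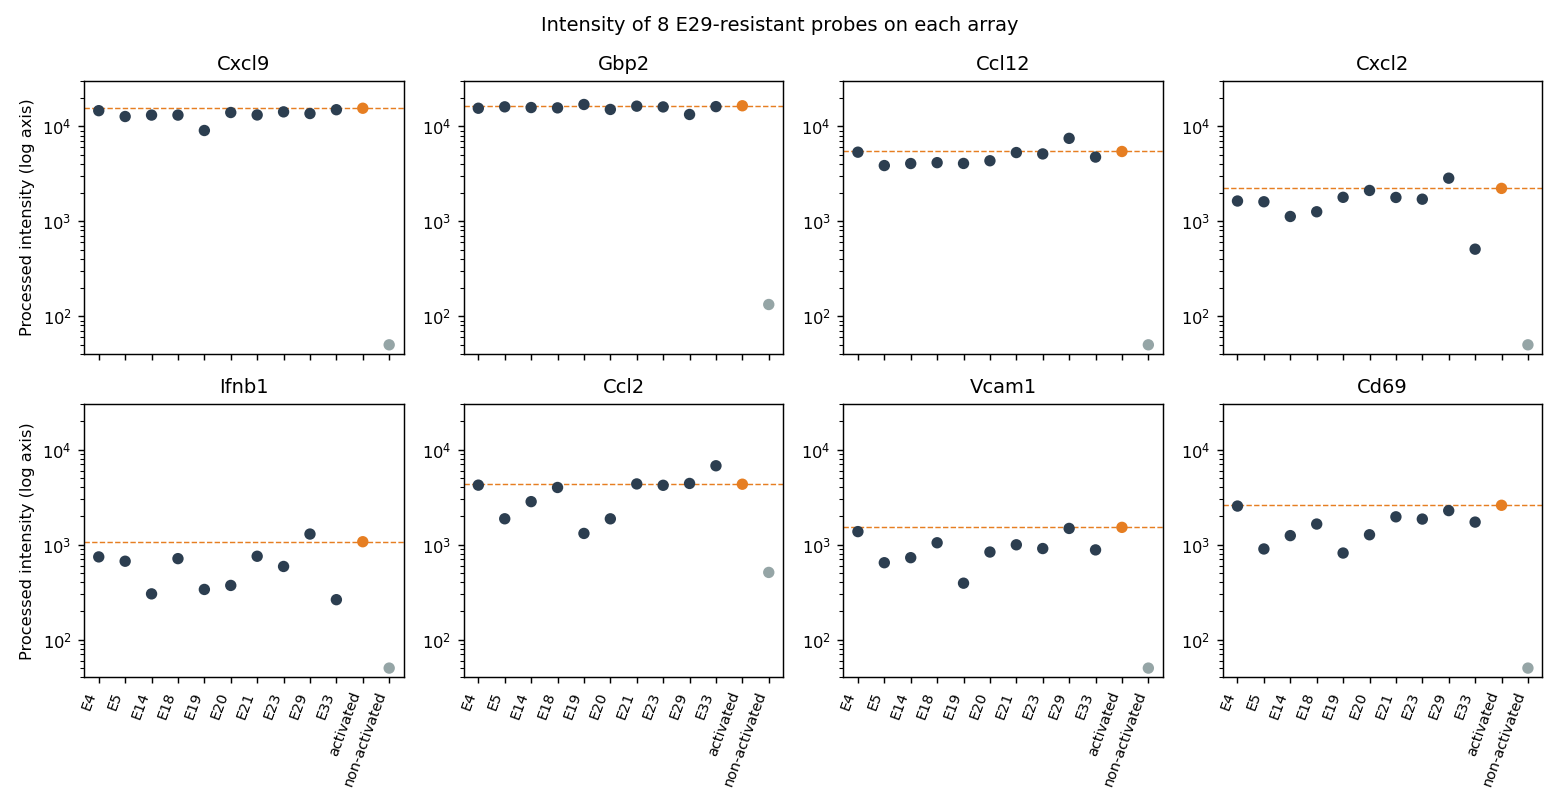
Each panel gives the processed intensity of 1 E29-resistant probe on a log axis, with the 10 compound arrays first (dark), then the activated control (orange, dashed line) and the non-activated control (grey, values under 50 drawn at 50). Gbp2 is near level across the activated arrays, Cxcl9 is lower in E19 than in the others, Cxcl2 is lowest in E33, and Ccl2, Vcam1 and Cd69 are lowest in E19.

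Several genes were split between the class and other probes. Of 28 member genes with several probes on the array, 7 had all of them in the class, and 8 also had a strongly induced probe outside it (Agfg1, Cd40, Gbp2, Il15, Irgm1, Nampt, Nfkbie and Tapbp). For Nfkbie, Irgm1 and Nampt the probes lay close together on either side of the limit, with E29 differences of -0.48 and -0.61, -0.53 and -0.66, and -0.43 and -0.66. Agfg1 differed more, with -0.09 at the member probe and -1.10 at the other. Bcl2l11 was split in another way. Its member probes had 1020.3 and 373 in E29, against 1006 and 359.9 in the activated control. Its other 2 probes, induced by 1.53 and 1.18 and so under the induction limit, had 506 and 1161 in E29, against 1289 and 3326 in the activated control (log2 -1.35 and -1.52). Which transcripts each probe binds is not given in the files used here, and its part in these splits was not tested.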

How the data were processed

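Single-colour Illumina bead arrays of 12 BV2 cultures, 1 per condition, were used. The deposited processed table holds the authors' normalized intensity per probe. Its values are linear, have nearly equal array medians and do not go below 10. GenomeStudio 2010.3 is named per the submitters' processing notes, while the sources used here do not give the normalization method. Per the file headers, the scanner table holds a mean bead signal intensity and a detection p-value per probe. All 12 arrays were mapped by their labels, and the scanner table has 0 further columns of samples.

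Processed intensities were raised to at least 50 and log2 transformed, and differences between arrays were taken on that log2 scale. Probes above 50 in either group of a comparison form its background. Calls used 1.5-fold, and no test was possible with 1 array per condition. Named members were the 12 genes with the largest induction, the 5 largest and 5 smallest E29 differences, up to 2 members per direction for each other compound past 2-fold, the 5 widest ranges, the probes next to each limit, and the members of gene lists. The members and lists were chosen with earlier results of these data known. Other members, and probes of member genes outside the class, were named after their values were seen.

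Gene symbols came from the platform annotation, which names 23978 probes and leaves 1719 unnamed, and 23962 matched a RefSeq gene by Entrez identifier with 0 symbols updated. Promoter sequences are RefSeq's for GRCm38.p6. Alternatives included neqc on the scanner signals (limma 3.58.1, R 4.3.3), other floors, limits and references. Calculations used numpy 2.4.6 and pandas 2.3.3 under Python 3.11.15, plots were drawn with matplotlib 3.10.9, and the calculations were tested on simulated data. The sum of a bead array is not a depth, so precision is limited by the number of arrays.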

Additional observations from a re-analysis of the deposited data

How the results depend on the processing

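No paired analysis was possible because there was 1 array per condition. Of 22 recomputed counts, 14 stayed within 1.5 times the reported value, and 105 of 120 recomputed medians stayed within the spread of the 9 compound medians (SD 0.076). That spread exceeds the size of the E4, E18, E20, E21, E23 and E33 medians. One of these could therefore change sign and still count as staying. With values raised to 10, 107 of 461 strongly induced probes were members. Without background correction there were 43 members, and the E14 median was -0.064. With neqc there were 74 members, 63 of them shared with the 68. Requiring an induction of 3 gave 34 members of 146 probes, and medians of 0.037 for E4, -0.33 for E5 and -0.049 for E14. An E29 limit of -1 gave 122 members, and medians of -0.18 for E5, -0.44 for E29 and -0.14 for E33. With 1 probe per gene there were 39 members of 195. Choosing members by E29 against the other activated arrays gave 84 members, with an E29 median of -0.19.

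With the median of the remaining 10 activated arrays in place of the activated control, the medians were 0.024 for E4, -0.11 for E5, -0.017 for E14, -0.095 for E19, 0.12 for E21, 0.050 for E23 and 0.0013 for E29. Those of E18, E20 and E33 were -0.024, -0.036 and 0.0064. In that setting Ifnb1 was at -0.89 in E20 and Cd69 at -0.99 in E5, both less than 2-fold lower. The causes were not tested. The signal over background limits probes near 50 in the non-activated control, whose folds are bounds.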
